A study of Mus musculus with 46 samples.

Results

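Imprinted genes are expressed mainly from the chromosome of 1 parent, and their levels were followed here in 23 mouse stem cell lines. The members were 42 gene symbols listed for this purpose, 21 known as paternally expressed and 21 as maternally expressed. A gene was measured where a probe set of the array carried its symbol and no other, and the probe set with the highest mean was taken where there were several. This gave 36 measured members among 19938 genes, 19 of them paternally and 17 maternally expressed. Snrpn, Mirg, Ube3a and Gnas lay only on probe sets with several symbols, and no probe set was listed under H19 or Zrsr1, so these genes were not analysed here. An array reads the RNA of both alleles together, so the measurements below are levels and say nothing of which allele was used.

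The lines fell into 8 groups, each line grown as 2 cultures and hybridised on 2 whole-transcript arrays. Germline stem (GS) cells, the cultured form of spermatogonial stem cells, were represented by 3 DBA/2 lines grown in StemPro-34 medium with GDNF and FGF2. Embryonic stem (ES) cells came from other strains: R1 from a cross of 129 substrains, B6-6 from C57BL/6J, and BRC1 from (B6xDBA2)x129. The induced pluripotent stem (iPS) lines 1, 2 and 5 were DBA/2 and had been reprogrammed with retroviruses for c-myc, Klf4, Oct4 and Sox2. Multipotent germline stem (mGS) cells are ES-like cells derived from GS cells, here all DBA/2. Of these, 2 lines had arisen spontaneously and are called mGS. The other 12 were induced with lentiviruses in 4 routes of 3 lines, and all 4 routes included knock-down of p53. Dnmt mGS and Dmrt mGS were made with knock-down of Dnmt1 or Dmrt1, and Sox2 mGS and Oct4 mGS with added Sox2 or Oct4. The DBA/2 lines carried a GFP transgene. All lines were kept on mouse embryonic fibroblast feeders, which were depleted on gelatin before RNA was taken, and the pluripotent lines were grown in DMEM with 15% serum and LIF.

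Imprints are DNA methylation marks set in the germ line on one parental copy of a control region, and they are read after fertilisation as expression from a single copy. They are erased in primordial germ cells and set again according to sex. Male germ cells therefore carry methylation at the few paternally marked control regions, such as that of the Dlk1-Dio3 cluster, where methylation goes with silence of Meg3 and Rian, and lack it at the many maternally marked ones, such as those of Peg3, Peg10, Mest, Nnat and Impact. In embryos many paternally expressed genes favour growth and many maternally expressed genes restrain it, and several members are imprinted only in some tissues.

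Values are array intensities on a linear scale, and a group is given by the geometric mean of its lines. A level of 161, the 95th percentile of 1027 olfactory receptor genes, served as background. Of the 36 members, 30 exceeded it in at least 1 group mean, 16 paternally and 14 maternally expressed, and Mkrn3, Nap1l5, Dio3, Kcnq1, Asb4 and Kcnk9 did not. The 2 cultures of a line differed by a median of 1.06-fold over the members. The largest such gap, 2.96-fold, was for Igf2 in ES R1, a line for which 1 culture's description names a different line. Of 9 germline stem cell markers, the geometric mean was 2627 to 2942 in the GS lines and 208 to 273 in all others, and that of 9 pluripotency markers was 161 to 247 in GS and 1080 to 4041 elsewhere. Over 19 feeder fibroblast markers it varied more, from 189 in the line labelled Dnmt mGS 2 to 1994 in Sox2 mGS 3, with 9 to 19 of the markers above background. Its values are given beside the results, since fewer cells of a type and less RNA per cell cannot be told apart in bulk samples. Dnmt1 read 620 and 647 in Dnmt mGS 1 and 3 but 2752 in the line labelled Dnmt mGS 2, against 1934 to 2772 in the other 9 induced lines. Whether that line is labelled rightly could not be settled from these data, and it is part of every Dnmt mGS mean below.

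The first comparison set GS cells against pluripotent cells. Peg3, Peg10, Mest, Impact, Sgce, Meg3, Rian, Grb10, Phlda2, Cd81 and Commd1 were lower in GS than in both ES and iPS, and Sfmbt2 and Inpp5f were higher. Differences are on the log2 scale, first-named group minus second, with limma's standard error, n is 3 lines per group, and a gene was called at an adjusted p below 0.05 over all genes. Against ES, 17 of the 36 members (47.2%) were called, 5 higher and 12 lower, where 43.2% of all genes were called, 26.0% higher and 17.2% lower. Against iPS, 19 members (52.8%) were called, 6 higher and 13 lower, where 54.0% of all genes were called, 35.5% higher and 18.5% lower. With arrays centred on their medians the split against iPS was 4 higher and 16 lower. The share of members called was thus near that of all genes in both comparisons, and the p-values measure the spread between lines. GS cells differ from ES in strain as well as in cell type and medium, and these cannot be told apart there. GS and iPS share DBA/2 but differ in cell type, medium and the reprogramming retroviruses, which cannot be told apart either.

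**Figure D1:**
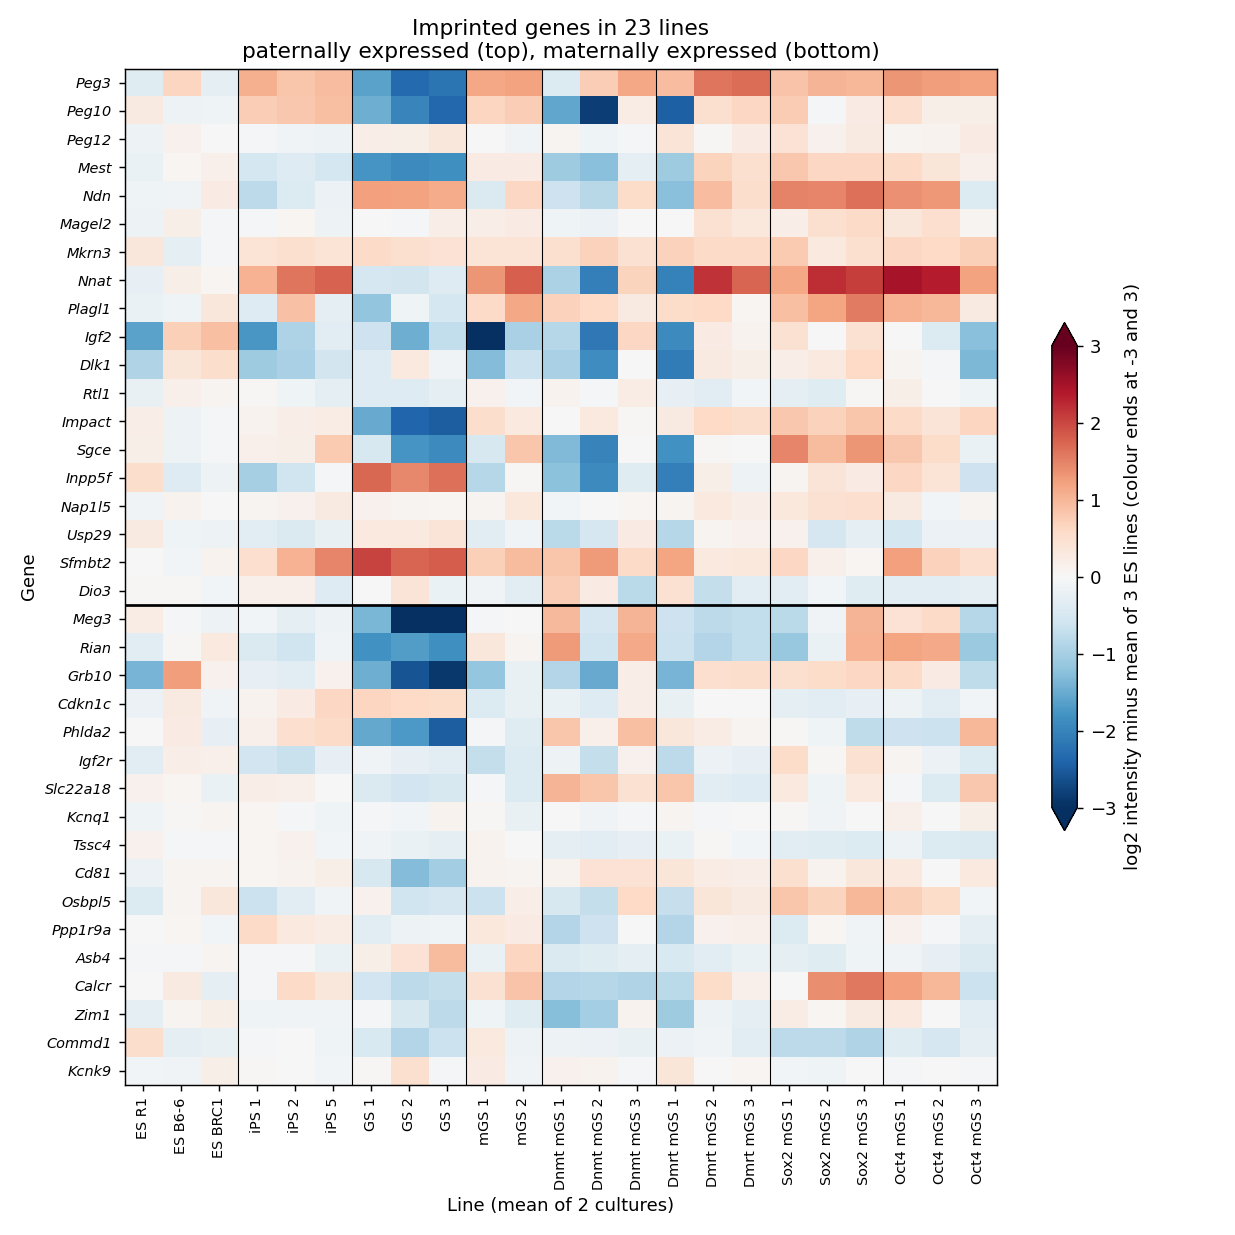
Intensity of the 36 measured imprinted genes (rows) in 23 lines (columns), as log2 intensity minus the mean of the 3 ES lines, with colour limits at -3 and 3. Paternally expressed genes lie above the thick line. GS columns are blue for Peg3, Mest, Impact, Meg3, Rian, Grb10 and Phlda2, and the columns Dnmt mGS 1, Dnmt mGS 2 and Dmrt mGS 1 are blue for Peg10, Sgce and Inpp5f.

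Among the paternally expressed genes, Peg3, a zinc finger transcription factor, read 612, 369 and 409 in GS 1, 2 and 3. It read 1454, 2906 and 1547 in ES R1, B6-6 and BRC1, and 3905, 3354 and 3561 in iPS 1, 2 and 5. The GS lines lay below every ES and iPS line, by a log2 difference of −2.05 ± 0.32 from ES (adjusted p = 3.8e-05, limma) and −2.99 ± 0.32 from iPS (adjusted p = 4.5e-07). Impact, a regulator of translation under stress, read 829, 459 and 432 in GS 1 to 3. Its ES lines read 2749, 2126 and 2297, and its iPS lines 2553, 2740 and 2780. Again the groups did not overlap, and the differences were −2.12 ± 0.18 from ES (adjusted p = 3.1e-08) and −2.30 ± 0.18 from iPS (adjusted p = 1.0e-08). Mest, which encodes a hydrolase-like membrane protein, was even within groups, at 652 to 716 in GS, 2140 to 2718 in ES and 1706 to 1868 in iPS. The GS level was lower by −1.84 ± 0.31 than ES and −1.36 ± 0.31 than iPS, with adjusted p of 1.0e-04 and 0.0015.

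Peg10 and Sgce are neighbours that share a control region and encode a retrotransposon-derived protein of the placenta and a sarcoglycan. Peg10 read 1693, 1184 and 925 in GS 1 to 3 against 4219 to 5707 in ES and 7795 to 8792 in iPS. No GS line reached an ES or iPS line, and the log2 differences were −1.94 ± 0.67 from ES (adjusted p = 0.025) and −2.75 ± 0.67 from iPS (adjusted p = 0.0022). Sgce read 367 in GS 1 but 149 and 136 in GS 2 and 3, against 461 to 572 in ES and 568 to 876 in iPS, with differences of −1.39 ± 0.53 and −1.76 ± 0.53 (adjusted p = 0.041 and 0.0097). Against ES, Peg10 no longer passed when ES R1, GS 2 or GS 3 was left out (adjusted p = 0.074, 0.061 and 0.087), nor did Sgce when any ES line, GS 2 or GS 3 was (adjusted p from 0.064 to 0.16). Nnat, which encodes a small membrane protein of the endoplasmic reticulum, read 572 to 642 in GS and 1733 to 2865 in iPS, a difference of −1.95 ± 0.79 (adjusted p = 0.045). That call was lost when any single one of the 6 lines was left out (adjusted p from 0.056 to 0.12).

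Sfmbt2, a Polycomb-related chromatin protein, went the other way. It read 2777, 2291 and 2381 in GS 1 to 3, 645 to 732 in ES, and 974, 1415 and 1890 in iPS 1, 2 and 5. GS was above both groups without overlap, by 1.86 ± 0.26 over ES (adjusted p = 1.4e-05) and 0.85 ± 0.26 over iPS (adjusted p = 0.012), the latter lost without iPS 1 (adjusted p = 0.077). Inpp5f, an inositol phosphatase, read 936, 766 and 896 in GS, 409, 217 and 255 in ES, and 141, 188 and 271 in iPS. Its excess in GS was 1.61 ± 0.49 over ES (adjusted p = 0.013; 0.051 without ES B6-6) and 2.16 ± 0.49 over iPS (adjusted p = 0.0013). Ndn, a MAGE family growth suppressor, was even in GS at 1439 to 1577 and lower in iPS at 390 to 596, a difference of 1.63 ± 0.50 (adjusted p = 0.011). Against ES it read 611 to 790 and was not called (1.18 ± 0.50, adjusted p = 0.067). Smaller calls were Peg12 (0.34) and Usp29 (0.65) higher in GS than in iPS, Rtl1 lower than in ES (−0.35, near background in all groups), and Mkrn3 higher than in ES (0.50, below background in both). Usp29 was lost without any of its 6 lines, and Rtl1 without GS 1, GS 2, ES BRC1 or ES B6-6. Over the 19 paternally expressed genes the median log2 difference was −0.06 against ES and 0.06 against iPS, beside 0.09 and 0.17 over all genes, and the latter list median was −0.03 with arrays centred on their medians.

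**Figure D2:**
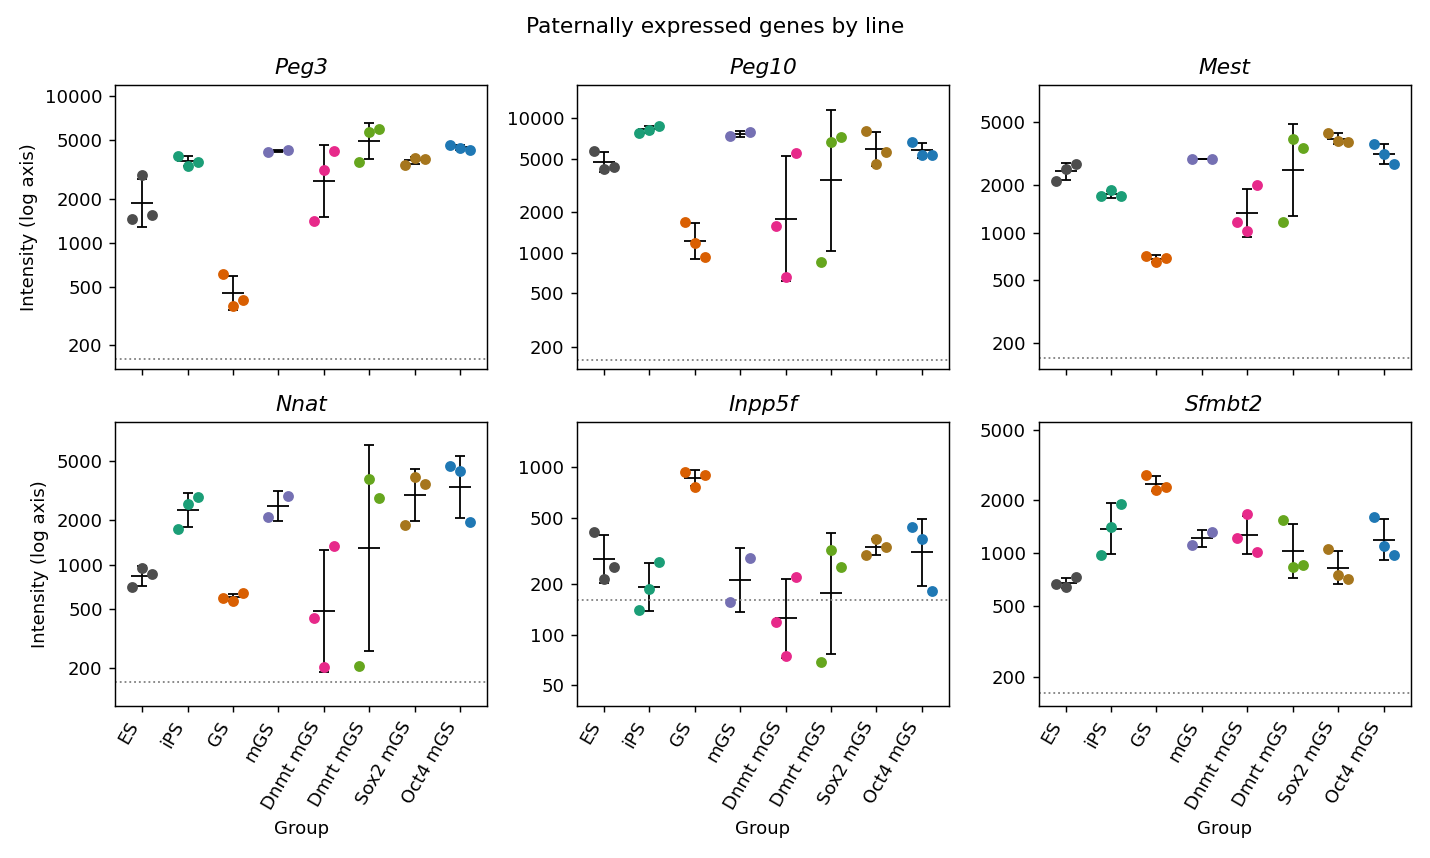
Intensity on a log axis of 6 paternally expressed genes in each line, grouped by cell type. Points are lines (mean of 2 cultures), bars the geometric mean with 1 SD of log2 values, and the dotted line the background level of 161. GS lines are lowest for Peg3 and Mest and highest for Inpp5f and Sfmbt2, and Peg10 and Nnat split the lines of Dnmt mGS and Dmrt mGS.

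Start-site sequences are shown for Peg3, Mest, Nnat and Meg3, members that were low together in GS relative to iPS. RefSeq windows of 300 bases (GRCm38.p6, 250 bases before the start to 50 after, written 5′ to 3′ on the gene's strand) were held for 29 of the 36 measured members, in 43 windows, and Peg10, Rtl1, Impact, Sgce, Cdkn1c, Kcnq1 and Kcnk9 had no entry. Capitals mark TGCCGC or its reverse complement GCGGCA, the hexamer that the imprint-keeping protein ZFP57 is known to bind when methylated, searched on both strands.
Meg3, chr12:109540746-109541045, plus strand: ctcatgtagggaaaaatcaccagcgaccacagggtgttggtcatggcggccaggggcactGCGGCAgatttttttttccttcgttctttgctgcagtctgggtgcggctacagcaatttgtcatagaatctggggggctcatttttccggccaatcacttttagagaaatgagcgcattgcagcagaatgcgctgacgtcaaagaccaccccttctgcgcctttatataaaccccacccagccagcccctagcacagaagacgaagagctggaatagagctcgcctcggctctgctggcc
Mest, chr6:30737800-30738099, plus strand: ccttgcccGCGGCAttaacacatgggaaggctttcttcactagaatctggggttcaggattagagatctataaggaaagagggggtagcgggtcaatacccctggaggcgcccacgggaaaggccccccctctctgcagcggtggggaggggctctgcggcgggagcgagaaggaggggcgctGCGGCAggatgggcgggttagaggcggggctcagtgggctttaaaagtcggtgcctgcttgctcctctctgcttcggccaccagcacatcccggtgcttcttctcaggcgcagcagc
Nnat, chr2:157559828-157560127, plus strand: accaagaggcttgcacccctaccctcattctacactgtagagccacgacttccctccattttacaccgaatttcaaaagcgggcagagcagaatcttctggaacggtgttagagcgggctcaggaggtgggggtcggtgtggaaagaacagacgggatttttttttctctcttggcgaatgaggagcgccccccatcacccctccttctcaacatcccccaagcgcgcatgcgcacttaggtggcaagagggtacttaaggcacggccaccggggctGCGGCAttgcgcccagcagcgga
Peg3, chr7:6730370-6730669, minus strand: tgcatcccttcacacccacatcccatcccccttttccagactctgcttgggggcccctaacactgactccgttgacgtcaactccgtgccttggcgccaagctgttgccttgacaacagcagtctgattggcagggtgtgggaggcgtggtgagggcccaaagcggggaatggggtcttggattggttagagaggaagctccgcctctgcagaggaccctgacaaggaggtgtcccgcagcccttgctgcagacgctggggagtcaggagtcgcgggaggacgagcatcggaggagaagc

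These windows held 13, 17, 17 and 13 CG dinucleotides for Meg3, Mest, Nnat and Peg3, with 1, 2 and 1 matches of the hexamer in the first 3 and none in that of Peg3. RefSeq holds 1 other window for Meg3, with 1 CG dinucleotide and no match. Mest has 2 others, 1 of them 3 bases downstream with the same counts and the other with 8 CG dinucleotides and no match. Over the member windows the median was 15 CG dinucleotides and 12 of 43 (27.9%) held the hexamer, in 11 genes. Over all 32851 windows of the same length the median was 7 and 11.6% held it. The window of Peg3 shares 263 bases with that of Usp29, which starts on the opposite strand, so the pair is read from 1 stretch of DNA. The levels of this pair differed all the same: where Peg3 was lower in GS than in iPS, Usp29, a deubiquitinase gene, read 307 to 328 in GS and 186 to 216 in iPS. A match of letters is a description of these windows and not a binding site.

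Among the maternally expressed genes, Meg3, a long noncoding RNA of the Dlk1-Dio3 cluster, read 693 in GS 1, 181 in GS 2 and 203 in GS 3. Its ES lines read 2082, 1711 and 1625 and its iPS lines 1704, 1461 and 1607. All GS lines lay below, GS 1 least so, by −2.61 ± 0.51 from ES (adjusted p = 4.0e-04, limma) and −2.43 ± 0.51 from iPS (adjusted p = 6.9e-04). GS 1 also had the highest feeder marker mean of its group, 698 against 256 and 222. Rian, a noncoding RNA of the same cluster, was at 95, 105 and 93 in GS, below background in every line. It read 267 to 411 in ES and 220 to 311 in iPS, so that ES was at least 2.08-fold and iPS at least 1.59-fold above GS, with adjusted p of 0.016 and 0.046. Leaving out ES BRC1 ended the call against ES (adjusted p = 0.055), and leaving out any of its 6 lines ended that against iPS (adjusted p from 0.066 to 0.12).

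Grb10, an adaptor that dampens insulin and IGF1 receptor signalling, read 357, 162 and 131 in GS 1 to 3. ES lines spread widely, at 372, 2345 and 1074 in R1, B6-6 and BRC1, and iPS lines read 770 to 1066. The lowest ES line was just above the highest GS line, and the differences were −2.32 ± 0.62 from ES (adjusted p = 0.0054) and −2.16 ± 0.62 from iPS (adjusted p = 0.0075). Phlda2, a pleckstrin homology protein that restrains placental growth, read 983, 860 and 515 in GS against 2391 to 3343 in ES and 3151 to 4209 in iPS. Its differences were −1.91 ± 0.35 and −2.31 ± 0.35 (adjusted p = 2.2e-04 and 2.8e-05), with no overlap. Cd81, a tetraspanin, read 1820 to 3205 in GS, 3992 to 4793 in ES and 4658 to 5062 in iPS (−0.95 ± 0.16 and −1.06 ± 0.16, adjusted p = 8.1e-05 and 2.5e-05). Commd1, a copper metabolism gene, was lower by −0.66 ± 0.16 and −0.58 ± 0.16 (adjusted p = 0.0030 and 0.0063).

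Cdkn1c, which encodes the cell cycle inhibitor p57, was higher in GS at 431 to 464 than in ES at 262 to 359, by 0.59 ± 0.15 (adjusted p = 0.0034). Its iPS lines read 317, 350 and 457 and overlapped GS (0.27 ± 0.15, adjusted p = 0.13). Asb4 was higher in GS in both comparisons (0.52 and 0.63) but below background in each group mean, and Tssc4 was slightly lower in GS than in iPS (−0.23 ± 0.09, adjusted p = 0.035). Leaving out GS 3 ended both calls of Asb4 and that of Tssc4, Asb4 against ES was lost without ES R1 or ES B6-6 as well, and Tssc4 was also lost without GS 2, iPS 1 or iPS 2. The median log2 difference over the 17 maternally expressed genes was −0.45 against ES and −0.57 against iPS. Igf2r, Slc22a18, Osbpl5, Ppp1r9a and Calcr were not called in either comparison. With the feeder score of each line in the model, every call against ES except Rtl1 (adjusted p = 0.065) was kept. Values so obtained were −1.30 for Peg10, −0.80 for Sgce and −1.66 for Grb10 (adjusted p = 0.019, 0.0063 and 3.2e-04).

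**Figure D3:**
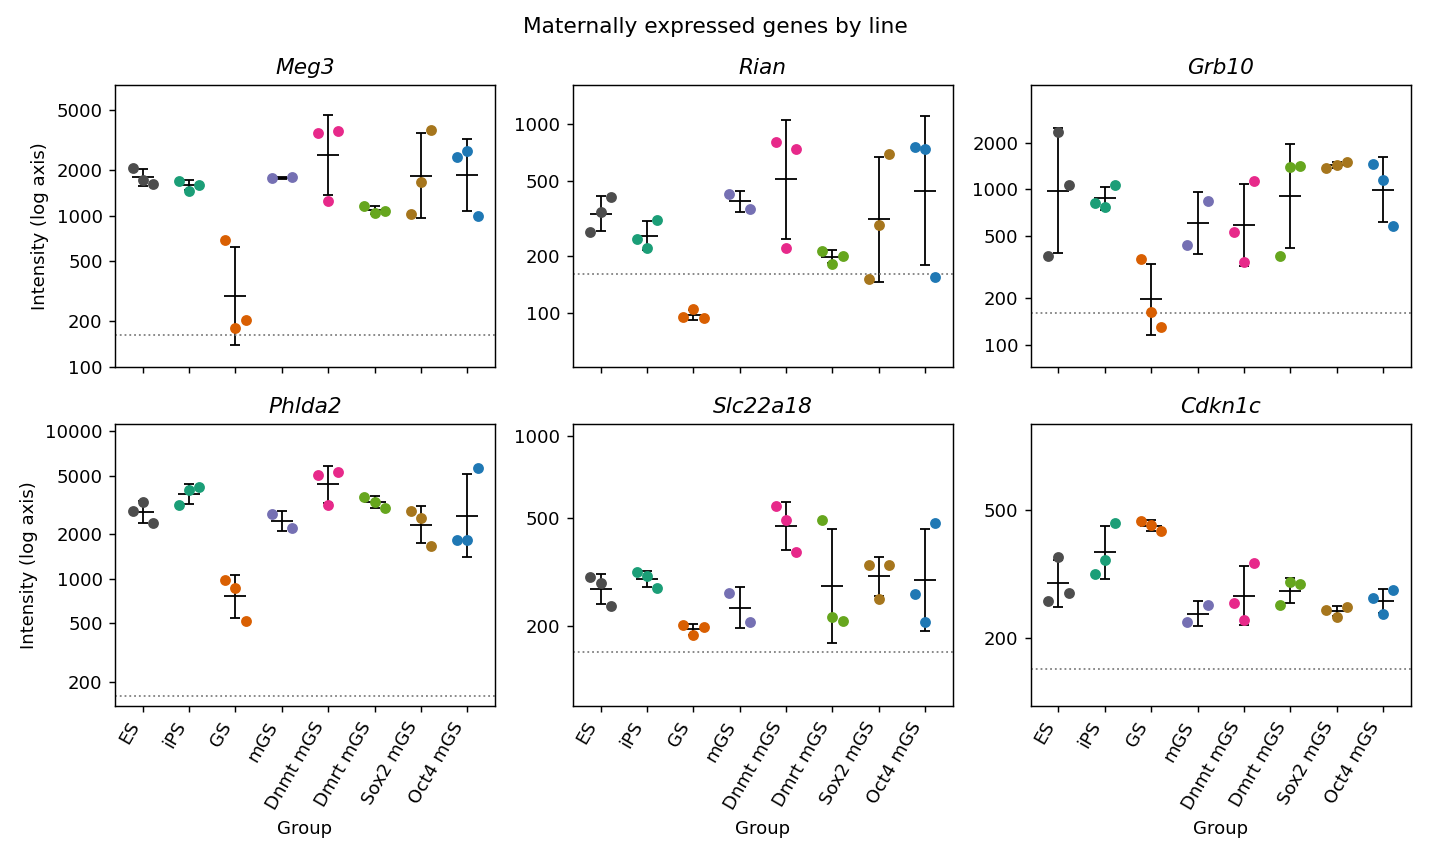
Intensity on a log axis of 6 maternally expressed genes in each line, drawn as for the paternally expressed genes. GS lines are lowest for Meg3, Rian and Phlda2, low for Grb10 and high for Cdkn1c, and Rian in GS lies under the background level of 161.

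Between iPS and ES none of the 36 members was called by limma, against 0.627% of all genes, while 5 had an unadjusted p below 0.05. The lines of these groups did not overlap for 9 members (25%), against 18.6% of all genes. Sfmbt2 was closest to the threshold, at 974 to 1890 in iPS against 645 to 732 in ES (1.01 ± 0.26, adjusted p = 0.095). Peg3 read 3354 to 3905 against 1454 to 2906 (0.94 ± 0.32, adjusted p = 0.22) and Nnat 1733 to 2865 against 709 to 953 (1.48 ± 0.79, adjusted p = 0.44). The ES lines differ from iPS in strain, which cannot be told apart from cell type.

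The 5 kinds of mGS cell were next compared with the GS cells from which such lines derive. In all 5, Peg3, Mest, Plagl1, Impact, Meg3, Phlda2 and Cd81 were higher than in GS, and Inpp5f, Sfmbt2 and Cdkn1c were lower. The comparisons share the same 3 GS lines and are therefore not independent of one another. All mGS kinds differ from GS in medium as well as in cell type, and the induced routes also in their lentiviruses, with p53 knock-down. These cannot be told apart. Spontaneous mGS had 16 called members (44.4%), 13 higher and 3 lower, where 43.1% of all genes were called, 16.2% higher and 26.9% lower. The Dnmt route had 19 (52.8%), 12 higher and 7 lower, beside 49.1% of all genes, 19.1% higher and 30.0% lower. The Dmrt route had 13 (36.1%), 9 higher and 4 lower, beside 41.6%, 17.6% higher and 24.1% lower. The Sox2 route had 21 (58.3%), 17 higher and 4 lower, beside 44.0%, 19.4% higher and 24.6% lower. The Oct4 route had 18 (50%), 14 higher and 4 lower, beside 42.9%, 20.2% higher and 22.6% lower. Below, values for the 5 kinds follow the order spontaneous, Dnmt, Dmrt, Sox2, Oct4. For mGS, with 2 lines, the count was 10 without mGS 1, and for Dnmt mGS it was 16 without the line labelled Dnmt mGS 2, with Peg12, Ndn and Usp29 lost.

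Peg3 had the largest rise among the paternally expressed genes in each of these comparisons. Its rises over GS were 3.23 ± 0.36, 2.55 ± 0.32, 3.45 ± 0.32, 3.01 ± 0.32 and 3.31 ± 0.32 in that order, and all 5 had an adjusted p of at most 3.3e-06 (limma). Its lines read 4173 and 4296 in mGS, 3409 to 3790 in Sox2 mGS and 4300 to 4661 in Oct4 mGS, tight groups well above the GS range of 369 to 612. Impact rose by 2.53, 2.23, 2.58, 2.89 and 2.65, with standard errors of 0.18 to 0.20. All its 14 mGS lines lay between 2388 and 4226. Mest rose by 2.09, 0.97, 1.87, 2.52 and 2.21, the rise in Dnmt mGS being lost without GS 2 or Dnmt mGS 3 (adjusted p = 0.0502 and 0.0996). Plagl1, a zinc finger growth regulator, rose by 1.48, 1.14, 1.01, 1.83 and 1.38, with GS lines at 207, 433 and 331. Its call in mGS was lost without mGS 2 (adjusted p = 0.062), and that in Dmrt mGS without GS 1, Dmrt mGS 1 or Dmrt mGS 2 (adjusted p from 0.051 to 0.099).

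Peg10 rose in mGS (2.63 ± 0.74, adjusted p = 0.0083), Sox2 mGS (2.26 ± 0.67, adjusted p = 0.0100) and Oct4 mGS (2.23 ± 0.67, adjusted p = 0.011), but was not called in Dnmt mGS (0.55, adjusted p = 0.51) or Dmrt mGS (1.49, adjusted p = 0.083). Sgce, its neighbour, was likewise called higher in mGS (1.56), Sox2 mGS (2.64) and Oct4 mGS (1.77), and Nnat in Sox2 mGS (2.29) and Oct4 mGS (2.48). Several of these calls rested on single lines: Peg10 and Sgce in mGS were lost without mGS 2 (adjusted p = 0.054 and 0.39), and Sgce there also without GS 2 or GS 3. Sgce in Oct4 mGS was lost without GS 3, Nnat in Sox2 mGS without any GS line, Sox2 mGS 2 or Sox2 mGS 3, and Nnat in Oct4 mGS without Oct4 mGS 1 or 2. Feeder marker means were 1378 to 1994 in Sox2 mGS and 625 to 1548 in Oct4 mGS against 222 to 698 in GS. The ranges of Sox2 mGS and GS did not overlap, so values with the feeder score are extrapolations there. With the feeder score in the model the rise of Peg10 was 0.52 in Sox2 mGS (adjusted p = 0.51) and 1.02 in Oct4 mGS (adjusted p = 0.096), and that of Nnat 0.23 and 1.05 (adjusted p = 0.83 and 0.15). Sgce was still called, at 1.04 and 0.66 (adjusted p = 0.0054 and 0.037). In the 2 mGS lines, with feeder means of 264 and 917, Peg10 read 7351 and 7843. Ndn fell in Dnmt mGS (−1.48 ± 0.50, adjusted p = 0.022), where its lines read 438, 376 and 978. That call was lost without GS 2, Dnmt mGS 1 or the line labelled Dnmt mGS 2. Usp29 fell there by 0.67 on the log2 scale, a call kept only when Dnmt mGS 3 was the line left out. Smaller or near-background calls were Rtl1 (0.38 in mGS, 0.44 in Dnmt mGS and 0.36 in Oct4 mGS), Peg12 (−0.26 in Dnmt mGS), and Magel2 (0.37) and Nap1l5 (0.33, below background) in Sox2 mGS. All of these but Rtl1 in Dnmt mGS were lost with the feeder score in the model (adjusted p from 0.0502 to 0.47). Magel2 was also lost without GS 1, GS 2, Sox2 mGS 2 or Sox2 mGS 3. Peg12 was lost without GS 2, GS 3, the line labelled Dnmt mGS 2 or Dnmt mGS 3. Rtl1 was lost in mGS without either mGS line and in Oct4 mGS without Oct4 mGS 1 or 2, and in both without GS 1 or GS 2.

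Sfmbt2 fell by 1.03, 0.96, 1.26, 1.58 and 1.05 in the order of the 5 kinds, all on the log2 scale with standard errors of 0.26 to 0.29. Inpp5f fell by 2.02, 2.78, 2.29, 1.37 and 1.47 in the same order, and its Dnmt mGS mean of 126 was under background, so that GS was at least 5.36-fold above it. The fall of Inpp5f in Sox2 mGS had an adjusted p of 0.030 and was lost without any single line of that comparison (adjusted p from 0.051 to 0.080). The differences in Sox2 mGS and Oct4 mGS were −2.57 and −2.31 with the feeder score in the model. In Oct4 mGS leaving out GS 1, GS 3 or Oct4 mGS 3 ended the call. In mGS leaving out mGS 1 did so, and that of Sfmbt2 ended there too. The median log2 difference of the 19 paternally expressed genes was 0.11, −0.01, 0.13, 0.37 and 0.26, against −0.13 to −0.04 over all genes. That of the Dnmt route was 0.08 after quantile normalization.

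Of the maternally expressed genes, Meg3 rose by 2.60 ± 0.57, 3.10 ± 0.51, 1.89 ± 0.51, 2.64 ± 0.51 and 2.66 ± 0.51 in the order of the 5 kinds, with adjusted p from 7.3e-05 to 0.0059 (limma). Every mGS line of any kind read at least 988, above the 693 of GS 1. Rian, under background in GS, was at least 2.42-fold higher in spontaneous mGS, and at least 3.17-fold, 1.95-fold and 2.75-fold higher for the Dnmt, Sox2 and Oct4 routes. For the Dmrt route, at 182 to 214, it was not called. The call for Rian was lost in mGS without either mGS line, and in Sox2 mGS without Sox2 mGS 3 (adjusted p = 0.14) or GS 3 (adjusted p = 0.055) and with the feeder score in the model (adjusted p = 0.30). Phlda2 rose by 1.70, 2.53, 2.13, 1.62 and 1.82, and Cd81 by 1.05, 1.28, 1.22, 1.26 and 1.15. Commd1 rose by 0.73, 0.48 and 0.47 in mGS, Dnmt mGS and Dmrt mGS and was not called in Sox2 mGS or Oct4 mGS against GS. It was lost in mGS without mGS 1, in Dnmt mGS without GS 2 or Dnmt mGS 1, and in Dmrt mGS without any of GS 2, GS 3, Dmrt mGS 1 or Dmrt mGS 2. Asb4, under background in all group means, was called lower in the 4 induced routes. Cdkn1c fell by 0.91, 0.72, 0.67, 0.88 and 0.78 on the log2 scale in the order of the 5 kinds.

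Grb10 rose in the 4 induced routes, by 1.58 ± 0.62, 2.20 ± 0.62, 2.87 ± 0.62 and 2.34 ± 0.62 (adjusted p = 0.043, 0.0078, 0.0010 and 0.0051). With the feeder score in the model these were 1.26, 1.66, 1.07 and 1.09, still called. The rise in Dnmt mGS was lost without Dnmt mGS 1, Dnmt mGS 3, GS 2 or GS 3. Slc22a18, a membrane transporter gene, was called in Dnmt mGS, where its lines read 554, 490 and 373 against 185 to 202 in GS (1.26 ± 0.29, adjusted p = 0.0016). Calcr, the calcitonin receptor, was under background in GS at 70 to 82, and was called higher in spontaneous, Sox2 and Oct4 mGS, whose means were 193, 242 and 175. With the feeder score in the model the calls in Sox2 mGS and Oct4 mGS were lost (adjusted p = 0.12 and 0.19). The calls in mGS and Oct4 mGS were lost without either of GS 2 and GS 3, without either mGS line, and without Oct4 mGS 1 or 2. In Sox2 mGS, where feeder markers were highest, Osbpl5 (1.15 ± 0.35) and Igf2r (0.57 ± 0.22) rose as well, and with the feeder score in the model these differences were 0.02 and −0.04 (adjusted p = 0.91 and 0.87). Osbpl5 was lost without GS 2, and Igf2r without any line but Sox2 mGS 2. The median log2 difference of the 17 maternally expressed genes was 0.26, −0.03, 0.30, 0.63 and 0.45, that of the Dnmt route being 0.01 after quantile normalization.

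Set against iPS rather than GS, few of these genes were called in most mGS kinds. A gene that was not called may still differ. Peg10 read 661 to 5492 in Dnmt mGS against 7795 to 8792 in iPS and was not called. Nnat, at 203 to 1328 against 1733 to 2865, was not called there either. None of the 36 was called in mGS, where limma called 0% of all genes and 2 members had an unadjusted p below 0.05, and none in Dmrt mGS, against 0.848% of all genes and 4 members unadjusted. Dnmt mGS had 2 called (5.56%, against 6.87% of all genes and 2.68% in the lower direction), Ppp1r9a (−0.86 ± 0.23, adjusted p = 0.035) and Tssc4 (−0.32 ± 0.09, adjusted p = 0.038), both lower. Oct4 mGS had 2 (against 13.8%, and 3.43% lower), Cdkn1c (−0.50 ± 0.15, adjusted p = 0.036) and Tssc4 (−0.38 ± 0.09, adjusted p = 0.014), again lower. These counts rested on single lines: they were 7 without Dnmt mGS 3 and 0 without Dnmt mGS 1 or the line labelled Dnmt mGS 2, and 6 without Oct4 mGS 3 and 0 without Oct4 mGS 2. Without iPS 1 or iPS 2 the Dnmt mGS count was 0, and it was 1 without iPS 5. The Oct4 mGS count was 0 without iPS 2, and 1 without iPS 5 or Oct4 mGS 1.

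Sox2 mGS differed from iPS in 11 members (30.6%, against 23.6% of all genes), 8 higher and 3 lower, beside 14.4% and 9.22% of all genes. With arrays centred on their medians the split was 5 and 5. Ndn rose most, reading 1853 to 2107 against 390 to 596 in iPS (1.99 ± 0.50, adjusted p = 0.0098). Osbpl5 (1.19), Mest (1.16), Plagl1 (1.14), Igf2r (0.85), Impact (0.60), Magel2 (0.46) and Peg12 (0.39) were also higher, and Commd1 (−0.75), Cdkn1c (−0.61) and Tssc4 (−0.42) lower. Feeder marker means were 1378 to 1994 in Sox2 mGS and 269 to 389 in iPS, and pluripotency marker means 1080 to 2022 and 2934 to 3862. With the feeder score in the model 3 of the 11, Peg12, Cdkn1c and Tssc4, were still called and 2 others were added. The values for Ndn, Mest and Osbpl5 were then 0.55, 0.32 and 0.04, with adjusted p of 0.27, 0.36 and 0.85 by limma. No line of either group had a feeder mean in the range of the other, so these values are extrapolations. The count was 7 without Sox2 mGS 3, with Magel2, Plagl1, Impact and Osbpl5 lost. The same genes were lost without iPS 1. Impact and Osbpl5 were also lost without iPS 2 or Sox2 mGS 1, and Peg12 without Sox2 mGS 1. Magel2 was lost without iPS 5 or Sox2 mGS 2 as well, and Plagl1 without iPS 5.

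The change of Dnmt mGS was then set against the mean of the other 3 induced routes. Of 36 members 8 (22.2%) were called, all lower in Dnmt mGS and 7 of them paternally expressed, where 19.2% of all genes were called, 10.4% lower. After quantile normalization there were 1 higher and 6 lower. Nnat had the largest difference, with 435, 203 and 1328 in Dnmt mGS 1, the line labelled 2, and 3. Lines of the Dmrt route read 206, 3779 and 2806, those of the Sox2 route 1862, 3904 and 3506, and those of the Oct4 route 4621, 4260 and 1930. The difference was −2.26 ± 0.65 (adjusted p = 0.024, limma), and Dmrt mGS 1 stood with the low lines. Sgce (−1.45 ± 0.43, adjusted p = 0.028), Mest (−1.24 ± 0.26, adjusted p = 0.0063) and Impact (−0.48 ± 0.15, adjusted p = 0.033) were lower as well. Impact read 2388 to 2919 in Dnmt mGS and 2855 to 4226 in the other routes, an overlap of single lines. Calcr, at 66 to 67 in Dnmt mGS, was under background there and at least 1.06-fold higher over the other routes (adjusted p = 0.017), though Dmrt mGS and Oct4 mGS held lines under background too, at 70, 134 and 78, and so did Sox2 mGS, at 122.

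The remaining calls in that comparison were small, Magel2 (−0.43), Nap1l5 (−0.25, under background) and Peg12 (−0.24). This count was the least stable of those reported: it was 0 without Dnmt mGS 1, 1 without the line labelled Dnmt mGS 2, 15 without Dnmt mGS 3, 14 without Dmrt mGS 1, 12 without Oct4 mGS 3 and 5 without Dmrt mGS 3 or Sox2 mGS 3. With the feeder score in the model it was 2, Mest (−0.84, adjusted p = 0.012) and Sgce (−0.68, adjusted p = 0.039). Feeder means were 380, 189 and 1334 in Dnmt mGS and 192 to 1994 in the other routes.

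Lines within a group were compared next, with the 2 cultures of each line as replicates, so that p measures the spread between cultures. A member was counted where limma's F test had an adjusted p below 0.05 and the highest line was at least 1 log2 unit above the lowest. By this rule 15 of 36 members (41.7%) differed among the Dnmt mGS lines, where 6.54% of all genes did. Among the Dmrt mGS lines 14 members (38.9%) differed against 7.31% of all genes, and among the Oct4 mGS lines 11 (30.6%) against 7.48%. The other groups had fewer: 3 members in ES (8.33% against 4.79%), 2 in iPS (5.56% against 1.33%), 3 in mGS (8.33% against 2.09%), 4 in GS (11.1% against 3.51%) and 4 in Sox2 mGS (11.1% against 1.91%). The count in Dmrt mGS was 9 when values under background were raised to it. Some members counted in the other 2 routes were limited by background in the same way. In Dnmt mGS the ranges of Inpp5f, Usp29 and Zim1 were then only at least 1.37-fold, 1.87-fold and 1.33-fold, under 1 log2 unit. Dio3 was under background in all lines. In Oct4 mGS the range of Calcr was at least 1.78-fold. Over all groups 21 members differed between the lines of at least 1 group and 15 of none, a count that was not made over all genes.

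**Figure D4:**
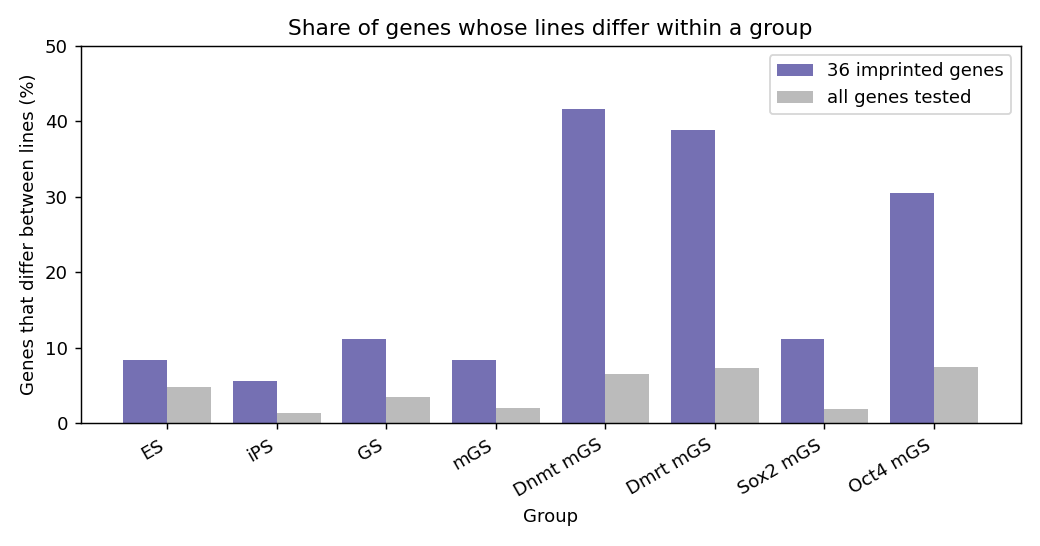
Percent of the 36 imprinted genes (purple) and of all genes tested (grey) whose lines differ within each group, by limma's F test at an adjusted p below 0.05 and a range of at least 1 log2 unit. Imprinted genes reach 41.7%, 38.9% and 30.6% for the Dnmt, Dmrt and Oct4 routes.

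Most of the paternally expressed genes that differed in Dnmt mGS and Dmrt mGS were low in the same 3 lines. These were Dnmt mGS 1, the line labelled Dnmt mGS 2, and Dmrt mGS 1. Peg10 read 1589, 661 and 5492 in Dnmt mGS and 857, 6614 and 7267 in Dmrt mGS, an 8.31-fold and an 8.48-fold range (adjusted p = 1.3e-19 and 5.1e-21). Nnat spanned 6.55-fold and 18.3-fold, from 203 to 1328 and from 206 to 3779 (adjusted p = 5.7e-20 and 2.1e-25). Sgce read 205, 128 and 503 in Dnmt mGS and 145, 522 and 504 in Dmrt mGS. Its lowest line was under background in both groups, so that the ranges were at least 3.1-fold and 3.2-fold. Inpp5f was under background in these 3 lines, at 120, 75 and 69, and read 221 to 319 in their sister lines. Ndn read 438, 376 and 978, and 283, 1273 and 972, in the same order of lines. Mest read 1174, 1023 and 1999 in Dnmt mGS, a gap below 1 log2 unit, and 1164, 3922 and 3450 in Dmrt mGS (3.37-fold, adjusted p = 9.3e-14). Dio3, under background in all lines, was counted in both groups but went the other way. It read 144, 103 and 119 in the same 3 lines. Dnmt mGS 3, Dmrt mGS 2 and Dmrt mGS 3 read 50, 53 and 68.

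Feeder marker means in these 3 lines were 380, 189 and 192, against 872 to 1334 in their sister lines, and 9 of 19 markers exceeded background in the latter pair of low lines. Lines of other groups with low feeder means varied. In GS 2 and 3, at 256 and 222, Peg10 was 1184 and 925 and Nnat 572 and 642. In iPS 1, 2 and 5, with feeder means of 269, 340 and 389, Peg10 was 7795 to 8792 and Nnat 1733 to 2865. In mGS 1, at 264, Peg10 was 7351 and Nnat 2114, and in ES R1, at 347, they were 5707 and 709. Igf2 and Dlk1, a growth factor and a Notch-like ligand, also read lower in the 3 lines, at 1296, 531 and 623 and at 401, 218 and 185, than in their sister lines, at 2521 to 3655 and 779 to 960. Igf2 read 771 in ES R1 against 3852 and 4427 in the other ES lines, whose feeder means were 716 and 957, and 283 in mGS 1 against 1195 in mGS 2. In GS 1, 2 and 3, with feeder means of 698, 256 and 222, Igf2 read 1533, 855 and 1406 and Dlk1 609, 977 and 740. The part of feeder RNA in these line differences was not tested.

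Maternally expressed genes of the same lines did not all follow. Grb10 was low in them, at 530, 341 and 374 against 1129, 1399 and 1419 in Dnmt mGS 3, Dmrt mGS 2 and Dmrt mGS 3. Slc22a18 was instead highest there, at 554, 490 and 490, against 209 and 216 in the other Dmrt mGS lines, and it reached 477 in Oct4 mGS 3 against 207 and 261 in its sisters (2.35-fold and 2.31-fold, adjusted p = 3.7e-10 and 5.1e-09). Zim1, a zinc finger gene of the Peg3 cluster, was under background in these 3 lines at 82, 98 and 94. Ppp1r9a, neurabin, read 156, 187 and 157 there and 288 to 321 in the sister lines. The gap passed the 1 log2 rule in Dmrt mGS as read. Its lowest line there was under background, so that the range was only at least 1.99-fold. Peg3 itself was low in Dnmt mGS 1, at 1411, but 3139 in the line labelled Dnmt mGS 2 and 3542 in Dmrt mGS 1.

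The line labelled Dnmt mGS 2 and Dmrt mGS 1 lay closest to each other over the 30 members above background. Their mean difference was 1.11-fold, all 30 agreed within 1.5-fold, and the widest gap was 1.42-fold for Peg12. Dmrt mGS 2 and 3 were equally close at 1.11-fold. Over 12721 genes the line labelled Dnmt mGS 2 and Dmrt mGS 1 were also each other's nearest line, with a correlation of 0.99 across genes, which are not independent. Sister lines reached the same value, among them Dmrt mGS 2 and 3, GS 2 and 3, and Oct4 mGS 1 and 2. Dnmt mGS 1, by contrast, differed from its nearest line, Dmrt mGS 1, by a mean of 1.42-fold and by 3.78-fold for Rian.

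Meg3 and Rian gave another division of the lines. Both were high in Dnmt mGS 1 (3503 and 808) and Dnmt mGS 3 (3638 and 743), where Dnmt1 was low, and lower in the line labelled Dnmt mGS 2 (1257 and 221). They were also high in Sox2 mGS 3 (3665 and 696), Oct4 mGS 1 (2431 and 758) and Oct4 mGS 2 (2664 and 743), whose Dnmt1 read 1934, 2158 and 1994. Sox2 mGS 1 (1022 and 152), Oct4 mGS 3 (988 and 155) and the 3 Dmrt mGS lines (1045 to 1164 and 182 to 214) formed the low end among mGS lines. Sox2 mGS 2 (1663 and 293) lay with the ES, iPS and spontaneous mGS lines, at 1461 to 2082 and 220 to 428. Ranges within the group were 2.89-fold and 3.66-fold for the Dnmt route, 3.59-fold and at least 4.32-fold for the Sox2 route and 2.70-fold and at least 4.70-fold for the Oct4 route, where the lowest Rian line was under background, with adjusted p of at most 1.6e-11 for each. Sox2 mGS 1 and Sox2 mGS 3 had close feeder means, 1862 and 1994, and Dnmt mGS 1, with Meg3 at 3503, had one of 380.

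**Figure D5:**
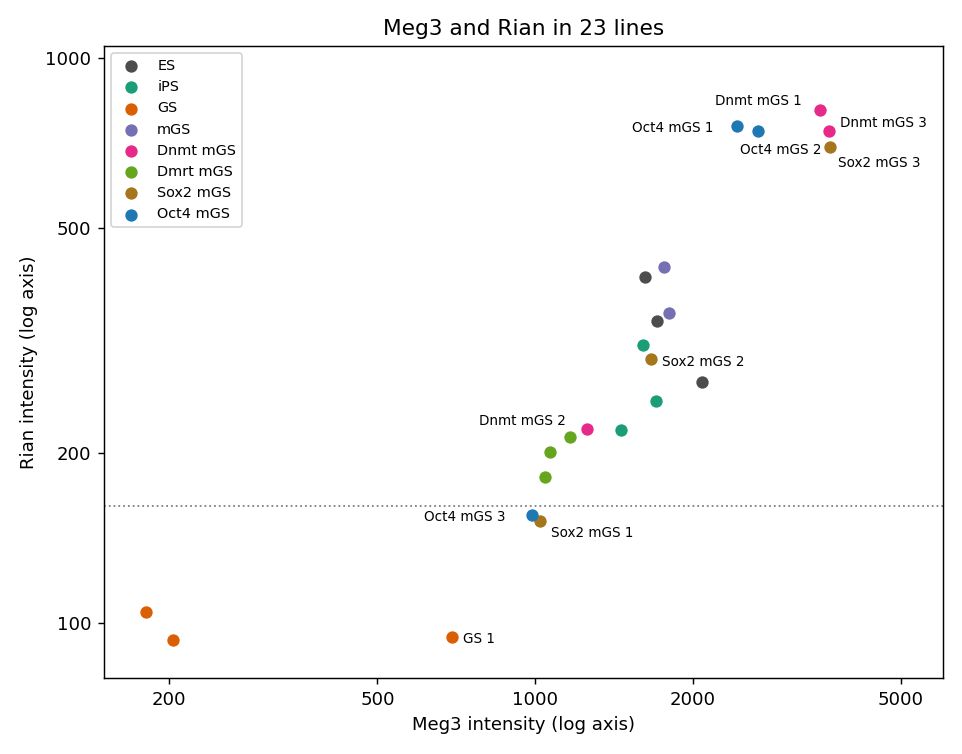
Meg3 against Rian intensity in each of 23 lines, both on log axes, coloured by group, with the background level of 161 dotted for Rian. Dnmt mGS 1 and 3, Sox2 mGS 3 and Oct4 mGS 1 and 2 lie at the upper right, and the 3 GS lines at the lower left under background for Rian.

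The paternally expressed genes of the same cluster were read beside them. Dlk1 read 401 and 779 in Dnmt mGS 1 and 3 and 218 in the line labelled Dnmt mGS 2, and in Oct4 mGS it was 835, 755 and 310. Rtl1 stayed between 118 and 182 in all 23 lines and Dio3 between 50 and 144, near or below background. In GS, where Meg3 and Rian were lowest, Dlk1 read 609, 977 and 740 and was not called different from ES (−0.06 ± 0.57, adjusted p = 0.95) or iPS (0.81 ± 0.57, adjusted p = 0.24).

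Oct4 mGS 3 stood apart from its sister lines in 11 members. Ndn read 506 there against 1744 and 1660, Nnat 1930 against 4621 and 4260, Grb10 581 against 1465 and 1152, and Calcr 78, under background, against 287 and 242. Phlda2 was instead higher, 5643 against 1845 and 1825 (3.09-fold, adjusted p = 1.1e-13), the highest reading of that gene in any line, above Dnmt mGS 1 and 3 at 5031 and 5305. Its feeder mean was 625 against 1548 and 1208, and its pluripotency marker mean 3386 against 1722 and 1298. Over the members its nearest line was iPS 2, at a mean of 1.31-fold. Over all 12721 genes its nearest line was Dmrt mGS 3, at 0.95 across genes, the lowest such value of any line.

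Within GS, Meg3, Sgce, Grb10 and Plagl1 differed between lines, by 3.84-fold, at least 2.28-fold, at least 2.22-fold and 2.10-fold. The lowest line for Sgce and Grb10, GS 3, was under background. GS 1 was the highest line for the first 3 and the lowest for Plagl1. In ES, Grb10 (6.30-fold), Igf2 (5.75-fold) and Dlk1 (2.72-fold) differed, each lowest in R1, and strain and line cannot be told apart. In iPS the members were Igf2, at 700, 1248 and 1885 in iPS 1, 2 and 5, and Plagl1, at 363, 869 and 396. Sgce and Ndn were higher in mGS 2 than in mGS 1, at 904 against 364 and 1022 against 493.

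Of the 36 members 30 were called in at least 1 of the 14 comparisons between groups, 16 paternally and 14 maternally expressed. The same count over all genes was not made. Each comparison that included GS called 41.6% to 54.0% of all genes. Igf2, Dlk1 and Dio3 among the paternally and Kcnq1, Zim1 and Kcnk9 among the maternally expressed genes were called in none. Igf2 had the widest range of these, from 283 in mGS 1 to 4427 in ES BRC1, with large gaps inside groups. Kcnq1, a potassium channel gene, stayed between 121 and 159 and Kcnk9 between 82 and 124 in all lines, both under background.

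Genes that set or keep imprints were read beside the members. Of 18 measured regulators, 3 were higher and 10 lower in GS than in ES, beside 26.0% and 17.2% of all genes. Tet1 and Tet2, which oxidise methylcytosine, and Dnmt3l, the cofactor of new methylation in germ cells, had GS means under background and were at least 31.9-fold, 9.70-fold and 17.4-fold higher in ES (adjusted p = 4.4e-14, 7.3e-07 and 6.7e-10). Zfp57, the zinc finger protein that protects imprints, read 718 to 1158 in GS and 3865 to 5373 in ES (−2.26 ± 0.23, adjusted p = 2.6e-07). Tet3 was higher in GS (1.49 ± 0.12, adjusted p = 1.7e-08). In Dnmt mGS against the other induced routes, 3 regulators were higher and 4 lower, beside 8.85% and 10.4% of all genes. Dnmt3b, a new-methylation enzyme, was lower (−1.43 ± 0.43, adjusted p = 0.029, limma) and Dppa3 higher (1.28 ± 0.42, adjusted p = 0.044), with Zfp57 (0.71 ± 0.19) and Tet2 (1.07 ± 0.35) also higher. Dnmt1, the target of the knock-down (−1.07 ± 0.28), Tet3 (−0.44 ± 0.10) and the insulator protein gene Ctcf (−0.33 ± 0.09) were lower as well. Refits without single lines or with the feeder score were made for the members only, so how far these regulator calls rest on single lines was not tested. Dnmt3b read 807, 534 and 1804 in Dnmt mGS 1, the line labelled 2, and 3, and 733, 3435 and 2988 in Dmrt mGS, low in the same 3 lines as Peg10 and Nnat.

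Imprinted genes outside the list were read in the same way. Of all genes 26.0% were called higher and 17.2% lower in GS than in ES. Among 5 further paternally expressed genes, Airn, Zdbf2 and Slc38a4 fell in GS relative to ES (−1.50 ± 0.45, −1.17 ± 0.29 and −0.84 ± 0.27), and Rasgrf1, called higher, had means under background in both. Among 11 further maternally expressed genes, 2 were higher in GS than in ES and 0 lower, with 3 at an unadjusted p below 0.05 by limma. Of the 2, Nap1l4 (0.66 ± 0.07, adjusted p = 1.0e-06) exceeded background. Ascl2, a placental transcription factor, was the only one of the 16 called between iPS and ES, where 0.627% of all genes were, at 382 to 493 against 154 to 277 (1.08 ± 0.24, adjusted p = 0.045).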

How the data were processed

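RNA of 46 cultures (2 of each of 23 lines) was hybridised to 1-colour whole-transcript arrays. The authors deposited linear intensity values for 28856 probe sets, from 16 upward. The submitters' processing notes name mm9, and the scaling of the arrays was not stated there or in the labels. The number of arrays limits the precision.

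Probe sets with 1 gene symbol gave 19938 genes, by the probe set with the highest mean. Values were taken as log2 and cultures averaged by line. One limma model (R 4.3.3, limma 3.58.1, statmod 1.5.0) was fitted to the 8 groups over all genes, with Benjamini-Hochberg adjustment within each comparison at 0.05. Lines within groups were compared by limma's F test on the 46 arrays. Scripts were tested on simulated data. The feeder score is a line's mean log2 intensity of 19 fibroblast markers. Alternatives were quantile normalization, median centring, a filter on dim genes, a floor at background, fits to fewer groups, blocks, the mean of probe sets, the feeder score and leaving out each line. Dropping 1 Oct4 mGS 1 culture, whose array median stood apart, was added after seeing the data. Clone numbers recur across groups, and the main fit did not pair lines by number. Of 52 same-numbered pairs, 24 had a correlation over 0.1. Pairs of unlike number were not computed, so this cannot decide whether numbers pair lines. Members and lists were chosen with earlier results of these data known. Called members are named by size of difference, up to 12 per direction of imprinting, and line values are given for members called in GS against ES or in Dnmt mGS against other routes and those differing within a group.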

Additional observations from a re-analysis of the deposited data

Results flagged for a closer look

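By limma, the change from GS to Dnmt mGS differed from the mean change of the Dmrt, Sox2 and Oct4 routes in 8 members. All 8 were lower in Dnmt mGS, where 10.4% of all genes were called lower. GS cancels out of this difference, so it is the comparison with the other induced routes given above and not a further test. Nnat differed by −2.26 on the log2 scale, Sgce by −1.45 and Mest by −1.24. Calcr gave −1.37 from the values as read, but Dnmt mGS was under background there, so that the other routes were only at least 1.06-fold higher. Impact differed by −0.48, Magel2 by −0.43, Nap1l5 by −0.25 and Peg12 by −0.24. Without Dnmt mGS 1 none of the 8 passed, and without the line labelled Dnmt mGS 2 1 did. Groups of at most 3 lines are too small for the test for single outlying lines, which was not run.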

How the results depend on the processing

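Of 146 member results called between groups, 89 kept their call without every single line, and 185 of 908 such refits lost a call while 0 reversed. Quantile normalization lost 6, median centring 11, the floor at background 28, fits to only the groups compared 19, the line as random block 8 and the feeder score 28. The filter on dim genes lost 0 of 129 and the mean of probe sets 0. Igf2r in Sox2 mGS against GS reversed to −0.0443 with the feeder score, and the cause was not tested. Members called in Dnmt mGS against iPS (2 as reported) were 4 with median centring, 1 with only the groups compared, 7 with the line as random block, with or without the culture number as replicate block, 0 with the clone number as replicate block and 10 with the feeder score. Those in Oct4 mGS against iPS (2) were 1 with the floor, 1 with only the groups compared, 6 with the random block, with or without the culture block, 1 with the clone block and 7 with the feeder score. Those in Sox2 mGS against iPS (11) were 20 with only the groups compared, 6 with the clone block and 5 with the feeder score. Those in iPS against ES (0) were 3 with the random block, with or without the culture block, and 2 with the feeder score, and in Dmrt mGS against iPS (0) 3 with the feeder score. Those in Dnmt mGS against the other routes (8) were 5, 4 and 3 with median centring, the floor and only the groups compared, 14 with the random block, with or without the culture block, and 2 with the feeder score. Lines of Dmrt mGS differed in 9 members with the floor (14). The causes were not tested. Without one line each, counts ranged from 14 to 16 for GS against ES, 14 to 17 for GS against iPS, 0 to 1 for iPS against ES, 10 to 17, 13 to 18, 12 to 14, 16 to 20 and 15 to 18 for mGS, Dnmt, Dmrt, Sox2 and Oct4 mGS against GS, 0 to 0, 0 to 7, 0 to 1, 7 to 10 and 0 to 6 for the same against iPS, and 0 to 15 for Dnmt mGS against the other routes. The clone number as replicate block lost 20 of 129 calls, and whether lines of the same number belong together was not settled. Without the set-apart culture of Oct4 mGS 1, 28 of 28 tested calls were kept. Levels near 161 are limited by the array's background.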
